A study of Mus musculus with 6 samples.

Results

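The cells described here are macrophages that were found in the libraries of sorted colon T cells from wild-type (WT) mice and from mice labelled IL-34-/- (IL34KO), interleukin 34 being a growth factor of macrophages. They were chosen by a gate on unique molecular identifiers (UMIs, 1 per captured RNA molecule), so the levels of the gate genes are given as description. A barcode had to hold at least 5 UMIs of Csf1r, Lyz2 and Cd68 in sum, at most 1 UMI of the T-cell genes Cd3d, Cd3e, Cd3g, Trac, Trbc1 and Trbc2, no UMI of Epcam, and under 1% of its UMIs from S100a8 and S100a9. It also had to hold at least 500 genes and at most 10% mitochondrial UMIs. The gate kept 7263 cells of the WT T-cell library and 4224 of the T-cell library labelled IL34KO. These 11487 cells stand among 60605 deposited barcodes in 6 libraries.

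The series studies the colon of mice after bone marrow transplantation, in which donor T cells can cause graft-versus-host disease. The WT T-cell library came from donor T cells sorted from WT recipients, and the other from donor T cells sorted from IL-34-/- recipients. A further pair held sorted donor CD11b+ CD64+ macrophages of WT and IL-34-/- recipients, and serves below as a second pair of libraries. The T-cell libraries were made to ask whether IL-34, through CSF1R on macrophages, alters the inflammatory T cells that arise in affected organs. Not given in the sources used here were the number of mice behind a library, their strain and age, the graft of these recipients, and whether both sorts used the same mice. The labels also do not say whether the macrophages in the T-cell libraries are of donor origin.

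IL-34 is a cytokine made by tissue cells, and it shares the receptor CSF1R with the cytokine CSF1. Signalling through CSF1R keeps monocytes and macrophages alive and drives their maturation. In the gut, monocytes enter from the blood and mature into macrophages that make C1q and MHC class II molecules. In inflammation monocytes keep arriving, and cells that have not fully matured accumulate.

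With a single library on each side nothing measured the spread between replicates, and no test was possible. Levels are UMIs summed over the gated cells and scaled to CPM, the usual depth-corrected unit, within those cells. Brackets hold exact 95% intervals, which cover counting error only and say nothing of differences between mice or preparations. A gene counts as measured at 5 CPM in 1 library of a pair, and as higher or lower when the ratio between libraries is at least 1.5-fold. Fewer cells of a kind and less RNA per cell cannot be told apart in such sums.

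The gated cells were 51.7% (50.8 to 52.5) of 14061 filtered barcodes in the WT library and 49.3% (48.2 to 50.4) of 8569 in the library labelled IL34KO. T cells under a mirrored gate were 9.51% and 10.7% of the same barcodes, or 1337 and 913 cells. So in both libraries, labelled as T cells, gated macrophages outnumbered gated T cells. The mirrored gate asks for at least 5 UMIs of the T-cell genes, at most 1 of the macrophage genes and none of Epcam. All other filtered barcodes fell in neither gate, so these shares do not describe the whole libraries. Of 9703 WT and 5844 IL34KO barcodes with at least 5 macrophage UMIs, 8419 and 4998 held at most 1 T-cell UMI. The median gated macrophage held 6704 UMIs in WT and 7149.5 on the IL34KO side, and the gated macrophages summed to 52111781 and 31628164 UMIs. Shallow cells were more common in the library labelled IL34KO, where 551 of the 4224 gated cells held fewer than 2000 UMIs against 198 of 7263 in WT. Mitochondrial genes gave 1.87% and 2.37% of the gated UMIs. The T-cell libraries shared 75 barcodes with each other, and 59 and 57 gated cells had a barcode that occurs in another library.

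The label of macrophage was set against markers that the gate did not use, since the gate genes and the mirrored gate of the T cells fix much of that contrast. The 12 monocyte and macrophage markers outside the gate summed to 12364 CPM in WT and 12572 CPM in the library labelled IL34KO, and to 433 and 341 CPM in the gated T cells. Among them was Adgre1, which encodes F4/80, at 147 and 162 CPM (3.49 and 1.44 in gated T cells). Of 15 T-cell markers only Il7r and Nkg7 were measured. The 9 T-cell markers outside the gate summed to 256 and 225 CPM, against 3734 and 4006 CPM in the gated T cells. Epithelial markers summed to 220 and 242 CPM, and the 9 neutrophil markers outside the gate to 344 and 309. Conventional dendritic cell markers summed to 513 and 533 CPM, and fibroblast and endothelial markers to 60.7 and 73.7. Measured marker genes past 1.5-fold were Phgr1 among the epithelial markers and Col3a1 and Dcn among the fibroblast and endothelial markers, all higher in the library labelled IL34KO. S100a9 and Jchain were both lower. S100a9 is a gate gene, given as description, and 10 cells of each library held 68.6% and 78.3% of its UMIs. Epcam, Mcpt1, Mcpt2, Epx and Hba-a2 had no UMI in either library, Epcam by the gate. Just under the threshold, 45 WT cells and 37 cells of the library labelled IL34KO held 4 UMIs of the macrophage genes, and just above it 54 and 32 cells held 5. At the T-cell limit, 643 and 378 gated cells held 1 T-cell UMI, while 78 and 75 otherwise fitting cells held 2.

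Il34 itself was almost absent from these cells. It had 6 UMIs among the WT cells (0.115 CPM, 0.0423 to 0.251) and 5 in those of the library labelled IL34KO (0.158 CPM, 0.0513 to 0.369). In the whole libraries its level was 1.18 CPM (0.989 to 1.40) for WT and 1.55 CPM (1.30 to 1.84) for IL34KO. In barcodes with Epcam UMIs and at most 1 macrophage UMI there were 3 UMIs over 300 cells for WT and 9 UMIs over 346 cells for IL34KO. The gene was therefore not lower in the library labelled IL34KO, and that library is named by its label throughout. The label gives the genotype of the recipients, while the sorted T cells were of donor origin. Il34 levels in donor cells therefore do not check the label. Il34 (ENSMUSG00000031750) spans 110741829 to 110805924 on the minus strand of chromosome 8 (mm10). Which part of it was deleted is not stated in the labels, and tags outside that part would check nothing.

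The macrophages of both libraries were close to each other across the transcriptome. Of 9189 measured genes, 87 (0.947%) were higher and 43 (0.468%) lower in the library labelled IL34KO. These 2 shares are the background for every count of list members in the T-cell libraries below. The median log2 ratio was 0.01, the 5th to 95th percentile ran from −0.22 to 0.30, and 8295 genes (90.3%) lay within 1.2-fold. By at least 2-fold, 24 genes differed on the higher side and 21 on the lower side of the comparison. Of the 43 lower genes, 17 belonged to mitochondrial, ribosomal, immunoglobulin and unnamed-gene classes, as did 6 of the 87 higher ones.

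**Figure D1:**
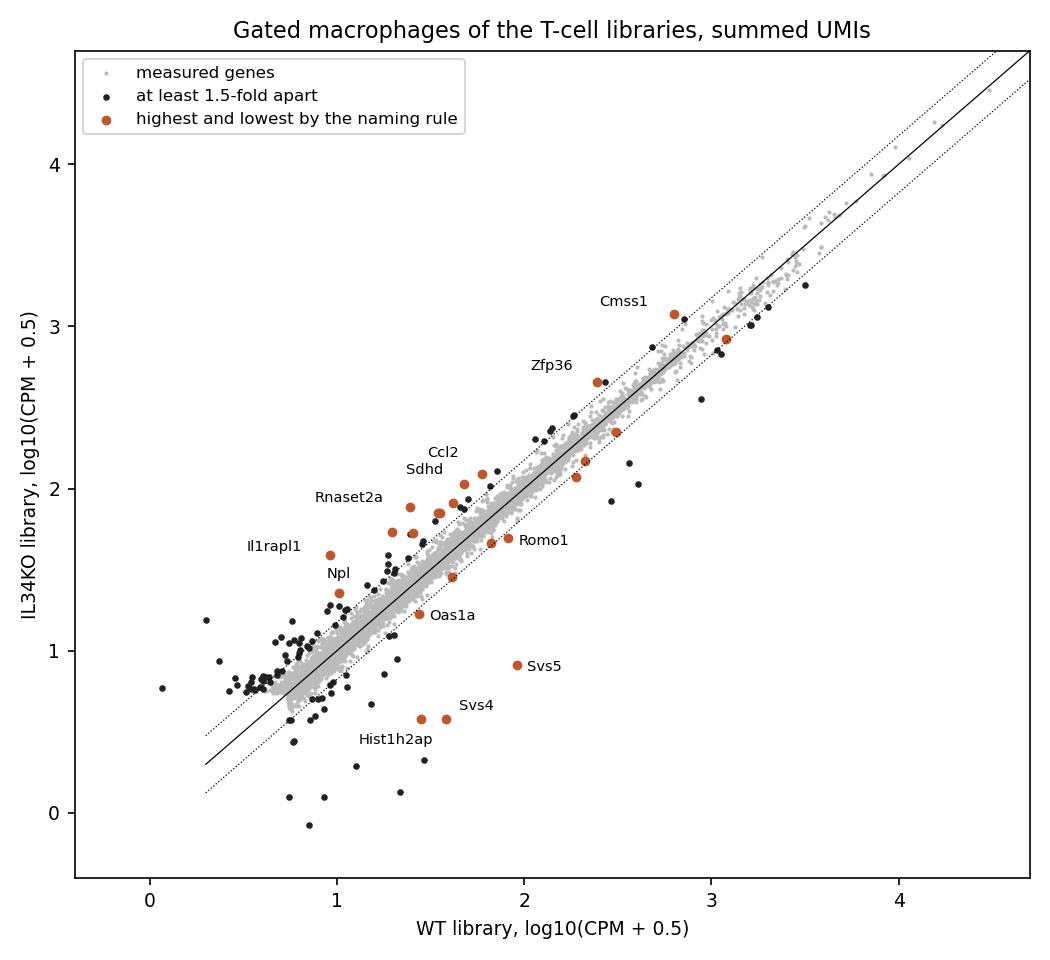
Level of every measured gene in gated macrophages of the WT T-cell library (x axis, log10(CPM + 0.5)) against the library labelled IL34KO (y axis, same scale). The solid line marks equal levels and the dotted lines 1.5-fold. Grey points are the measured genes, black points the 87 higher and 43 lower genes, and orange points the genes named by rank, of which the leading ones carry their names. Nearly all points hug the line, and Svs5, Svs4 and Hist1h2ap lie far below it.

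On the receptor side of the IL-34 axis Csf1r, a gate gene whose level is given as description and supports nothing, stood at 489 CPM in WT and 487 CPM in the library labelled IL34KO (ratio 0.994, 0.975 to 1.01). Sdc1, a syndecan that binds IL-34, stood at 107 and 109 CPM (ratio 1.02, 0.976 to 1.06). Ptprz1, a further IL-34 receptor, had 2 UMIs and none, too few to compare. Csf1, the other CSF1R ligand, was at 13.1 and 15.8 CPM (ratio 1.21, 1.08 to 1.36), under the 1.5-fold mark. Of 20 measured Il34 and Csf1r signalling genes, 2 were higher, 0 lower, and the median log2 ratio was 0.03 beside 0.01 for all genes. The 2 were Cebpb, a transcription factor of myeloid cells, at 715 and 1114 CPM (1.56-fold, 1.53 to 1.58), and Socs3, an inhibitor of cytokine signalling, at 185 and 284 CPM (1.54-fold, 1.49 to 1.58). In C1q-low cells alone, those with C1qa, C1qb and C1qc under 0.1% of UMIs, both were just under 1.5-fold (log2 ratios 0.56 and 0.58). In the macrophage libraries Cebpb stood at 758 CPM in WT and 635 CPM in IL34KO, and Socs3 at 214 and 185 CPM. Of the exon bases of Cebpb, 20.7% overlap a gene on the opposite strand.

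Polarization genes hardly differed. Nos2 (chromosome 11, 78920787 to 78960254, plus strand), which encodes inducible nitric oxide synthase, stood at 248 CPM in WT and 267 CPM in the library labelled IL34KO (1.08-fold, 1.05 to 1.11). Arg1 (chromosome 10, 24915221 to 24927484, minus strand), arginase 1, which uses the same substrate, stood at 223 and 243 CPM (1.09-fold, 1.06 to 1.12). Both ratios lie inside the 5th to 95th percentile of all genes, which ran from 0.859 to 1.23 as a ratio. In the second pair, Nos2 was at 308 and 515 CPM, and Arg1 at 146 and 180 CPM.

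Proinflammatory macrophage genes had 2 of 24 measured members higher and 0 lower, with a median log2 ratio of 0.07. The 2 were the prostaglandin synthase gene Ptgs2 at 484 and 746 CPM (1.54-fold, 1.52 to 1.57) and the cytokine gene Il6 at 18.02 and 30.5 CPM (1.70-fold, 1.55 to 1.86). Ptgs2 dropped under 1.5-fold when cells were thinned, weighted equally, restricted to C1q-low cells or freed of cycling cells (log2 ratios 0.51 to 0.56). Il1b was at 2685 and 2810 CPM, Tnf at 108 and 116 CPM, and Cxcl9, a chemokine for T cells induced by interferon gamma, at 1202 and 1010 CPM. Alternative activation genes had 0 of 19 measured members higher or lower, with a median of 0.02. Chil3 was at 433 and 439 CPM, and Retnla, a product of alternatively activated macrophages, at 57.5 and 74.7 CPM (1.30-fold, 1.23 to 1.37). The 10 richest cells of each library held 32.4% and 46.7% of the Retnla UMIs, and without them it stood at 38.9 and 39.8 CPM.

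To count cells instead of molecules, UMIs were drawn at random down to 2000 per cell, and the shallower cells were left out. Of the 7065 and 3673 cells kept, 13.7% (12.9 to 14.6) and 14.4% (13.3 to 15.6) held Nos2 without Arg1, and 11.5% (10.8 to 12.3) and 11.9% (10.8 to 12.96) held Arg1 without Nos2. Both genes were found in 5.42% (4.90 to 5.97) and 5.23% (4.53 to 5.997), and neither in 69.3% (68.2 to 70.4) and 68.5% (67.0 to 70.0). All of these intervals overlap between libraries, but they cover counting error over cells only and cannot decide whether the recipients differ. The gated T cells, which should lack both genes, gave 0.691% and 0.280% for Nos2 and 0.494% and 0.420% for Arg1 at median depths of 2860 and 3013 UMIs. Unthinned, Nos2 was found in 29.9% and 28.3% of gated macrophages and Arg1 in 27.6% and 26.0%. Mrc1, a mannose receptor of mature gut macrophages, was found in 41.1% and 41.4% of thinned cells, and Cxcl9 in 58.4% (57.3 to 59.6) and 53.9% (52.2 to 55.5).

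**Figure D2:**
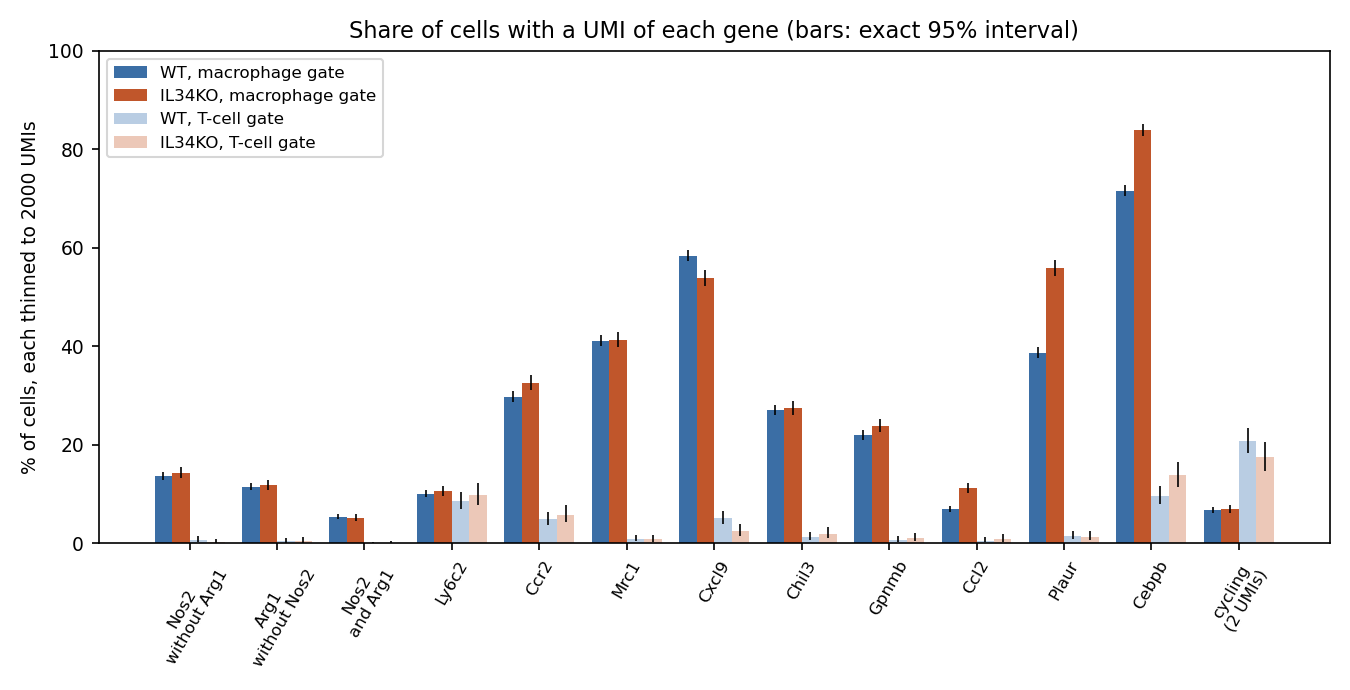
Share of cells with at least 1 UMI of each gene or gene pair after thinning to 2000 UMIs (y axis, %), in gated macrophages and in gated T cells of the same libraries. Dark bars are macrophages (7065 WT cells and 3673 of the library labelled IL34KO), pale bars T cells, which serve as background, and thin lines exact 95% intervals. Dark Nos2 and Arg1 bars match between libraries. Dark Ccl2, Plaur and Cebpb bars are taller in the library labelled IL34KO, as are pale Ccl2 and Cebpb bars.

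Genes of monocytes and of mature macrophages mark the steps between blood monocyte and resident cell. Of 18 measured monocyte genes 0 reached 1.5-fold in either direction, with a median log2 ratio of 0.09. Ly6c2, an antigen of fresh monocytes, was at 74.6 and 80.2 CPM, and Ccr2, their chemokine receptor, at 218 and 244 CPM. Ly6c2 was found in 10.1% and 10.6% of thinned cells, but the gated T cells, which can make it too, gave 8.59% and 9.80%. Ccr2 was found in 29.8% (28.7 to 30.8) and 32.6% (31.1 to 34.2), with 4.94% and 5.88% in gated T cells. C1qa, a complement gene of maturing gut macrophages, was at 2082 and 2088 CPM (ratio between 0.993 and 1.01), and 92.5% (91.9 to 93.1) and 92.0% (91.1 to 92.8) of the gated cells were C1q-high.

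Resident tissue macrophage genes had 1 of 19 measured members higher, 1 lower and a median log2 ratio of 0.10. The higher one, Lyve1, a hyaluronan receptor, stood at 6.89 and 10.9 CPM (1.59-fold, 1.37 to 1.85). Only 78 WT cells and 47 cells of the library labelled IL34KO carried it, and 10 cells held 43.2% and 67.6% of its UMIs. Without those 10 cells it stood at 3.91 and 3.54 CPM. The lower one, Tmem119, best known from microglia, stood at 5.16 and 3.26 CPM and was named after its value was seen. Cd163, the haemoglobin scavenger receptor, was at 5.91 and 4.84 CPM. Gas6, a bridging ligand for dying cells, was at 9.94 and 13.6 CPM, Folr2, a folate receptor, at 6.06 and 7.78 CPM (63.1% of its exon bases overlap a gene on the opposite strand), and Mrc1 at 382 and 401 CPM.

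In the libraries of sorted macrophages 14 of the same 19 genes were measured, of which 4 were lower and 1 higher in the library labelled IL34KO, with a median log2 ratio of −0.37. The background there was 1.68% of 9242 genes lower and 0.963% higher. The 4 lower genes, some chosen after their values were seen, were Timd4, a receptor for dying cells, at 27.0 CPM in that WT library and 9.52 CPM in the one labelled IL34KO, Mrc1, the mannose receptor, at 292 and 142 CPM, Selenop, a selenium transport protein, with a log2 ratio of −0.97, and Cx3cr1, the fractalkine receptor, at 60.8 and 32.1 CPM. Cd163 (2.28 and 0.265 CPM) and Lyve1 (2.12 and 0.434 CPM) were under the floor of 5 CPM there. In the T-cell libraries none of these 4 reached 1.5-fold: Timd4 was at 32.7 and 36.8 CPM, Selenop at 335 and 372 CPM and Cx3cr1 at 84.5 and 81.2 CPM. The difference between the 2 pairs was not tested, since each side is 1 library. C1q-high cells were 78.7% and 73.5% of the same gate in the macrophage libraries, and the part of this share in the list's values was not tested.

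**Figure D3:**
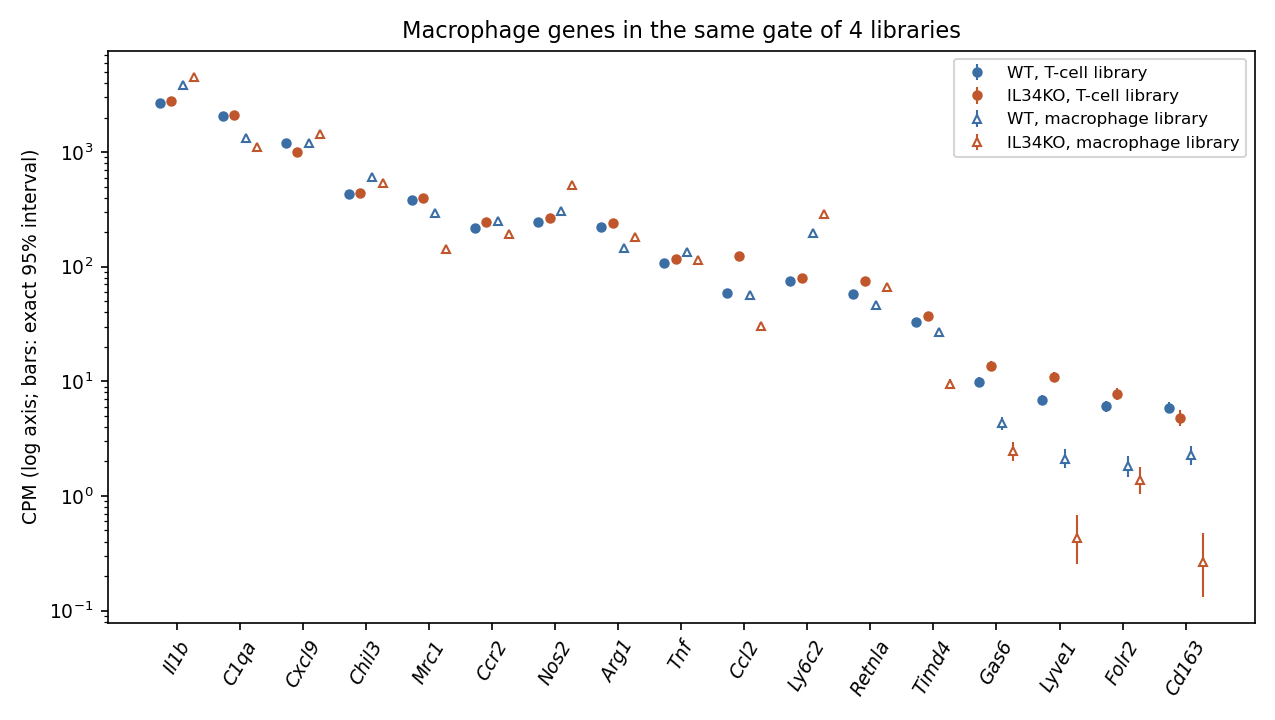
Level of 17 macrophage genes (y axis, CPM, log scale) in gated macrophages of 4 libraries. Filled circles are the T-cell libraries and open triangles the macrophage libraries, blue is WT and orange the library labelled IL34KO, and bars are exact 95% intervals. The circles of Nos2, Arg1, C1qa and Mrc1 nearly coincide and those of Ccl2 and Lyve1 part, while the triangles part for Nos2, Mrc1 and Timd4, and for Lyve1 and Cd163 below 5 CPM.

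Among genes of at least 20 CPM in 1 library, the higher end was led by Il1rapl1, an accessory protein of the interleukin 1 receptor family, on the X chromosome (86740870 to 88115645, minus strand). It stood at 8.67 CPM (452 UMIs) for WT and 38.6 CPM (1220 UMIs) in the library labelled IL34KO, a 4.45-fold difference (3.99 to 4.96). It was found in 5.98% and 24.5% of the gated cells. In gated T cells of the same libraries it stood at 11.4 and 44.1 CPM, and in the macrophage libraries at 7.61 and 13.5 CPM. Below 20 CPM, and chosen after their values were seen, Ccl21a (78 and 474 UMIs, log2 ratio 3.32) and Mmrn1 (35 and 170 UMIs) lay further apart, and 10 cells of each library held 92.3% and 97.5% of the Ccl21a UMIs.

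The gated T cells come from the same libraries, so their values are set beside those of the macrophages. Of 9869 genes measured there, 469 (4.75%) were higher and 314 (3.18%) lower in the library labelled IL34KO, over far fewer UMIs. Rnaset2a, a ribonuclease gene of the lysosome (chromosome 17, 8115445 to 8148097, minus strand), stood at 24.1 and 77.0 CPM in macrophages (3.19-fold, 2.98 to 3.42) and at 20.7 and 55.6 CPM in T cells. Its near copy Rnaset2b stood at 19.1 and 53.5 CPM (2.79-fold, 2.58 to 3.03). Of the 60-base stretches in their transcripts, 75.9% of Rnaset2a and 54.7% of Rnaset2b also occur in transcripts of other genes, so these counts are uncertain. Sdhd, a subunit of succinate dehydrogenase, stood at 47.5 and 106 CPM in macrophages (2.22-fold, 2.11 to 2.34) and 27.3 and 59.1 CPM in T cells. Cmss1 stood at 629 and 1195 CPM in macrophages (1.90-fold, 1.87 to 1.93) and 540 and 1025 CPM in T cells. Zfp36, tristetraprolin, which destabilises cytokine messages, stood at 244 and 452 CPM in macrophages (1.85-fold, 1.81 to 1.89) and 35.4 and 83.3 CPM in T cells. In the macrophage libraries Rnaset2a, Sdhd and Zfp36 stood at 20.8 and 24.6, 54.7 and 55.3, and 353 and 291 CPM, all under 1.5-fold. Il1rapl1, Rnaset2a, Sdhd, Cmss1 and Zfp36 were thus higher in 2 cell types of the T-cell library pair. Of these, Il1rapl1 was also past 1.5-fold in the macrophage libraries (log2 ratio 0.83). The recipients and the preparation of the libraries cannot be told apart here.

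A second set had few UMIs in the gated T cells, between 3 and 18 per library and gene. Ccl2 (chromosome 11, 82035571 to 82037453, plus strand), the chemokine that draws monocytes through CCR2, stood at 58.8 CPM (3064 UMIs) for WT and 123 CPM (3888 UMIs) in the library labelled IL34KO, 2.09-fold (1.99 to 2.19). It was carried by 905 (12.5%) and 735 (17.4%) of the cells, and by 7.03% (6.45 to 7.66) and 11.2% (10.2 to 12.3) after thinning, with 0.592% and 0.980% in gated T cells. The 10 richest cells held 9.11% and 14.4% of its UMIs, and without them it stood at 53.4 and 105 CPM. Cebpa, which drives myeloid differentiation, stood at 34.2 and 70.2 CPM (2.05-fold, 1.93 to 2.18) and was found in 20.4% and 34.5% of cells. Cxcl3, which attracts neutrophils, stood at 41.0 and 80.9 CPM (1.97-fold, 1.86 to 2.09), with 20.9% and 29.4% of its UMIs in 10 cells. In C1q-low cells its log2 ratio was 0.30, against 1.19 in C1q-high cells. Myadm was at 25.1 and 52.8 CPM, Npl, which breaks down sialic acid, at 9.83 and 22.3 CPM, and BC028528 at 35.1 and 70.1 CPM. Of the exon bases of BC028528, 49.8% overlap a gene on the opposite strand, and how strand was counted was not stated in the labels.

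In the macrophage libraries none of these 6 genes was higher in the library labelled IL34KO by 1.5-fold. Ccl2 stood at 57.0 and 30.5 CPM there, which is lower, Cebpa at 26.4 and 21.6 CPM, Npl at 7.77 and 5.42 CPM, Myadm at 27.7 and 28.7 CPM, BC028528 at 41.3 and 38.6 CPM, and Cxcl3 at 84.8 and 114 CPM. Epithelial UMIs differed between the groups: cells with at least 0.1% of UMIs from epithelial markers were 2.11% of WT gated cells and 9.11% of the library labelled IL34KO. With those cells left out, 81 genes were higher and 47 lower.

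**Figure D4:**
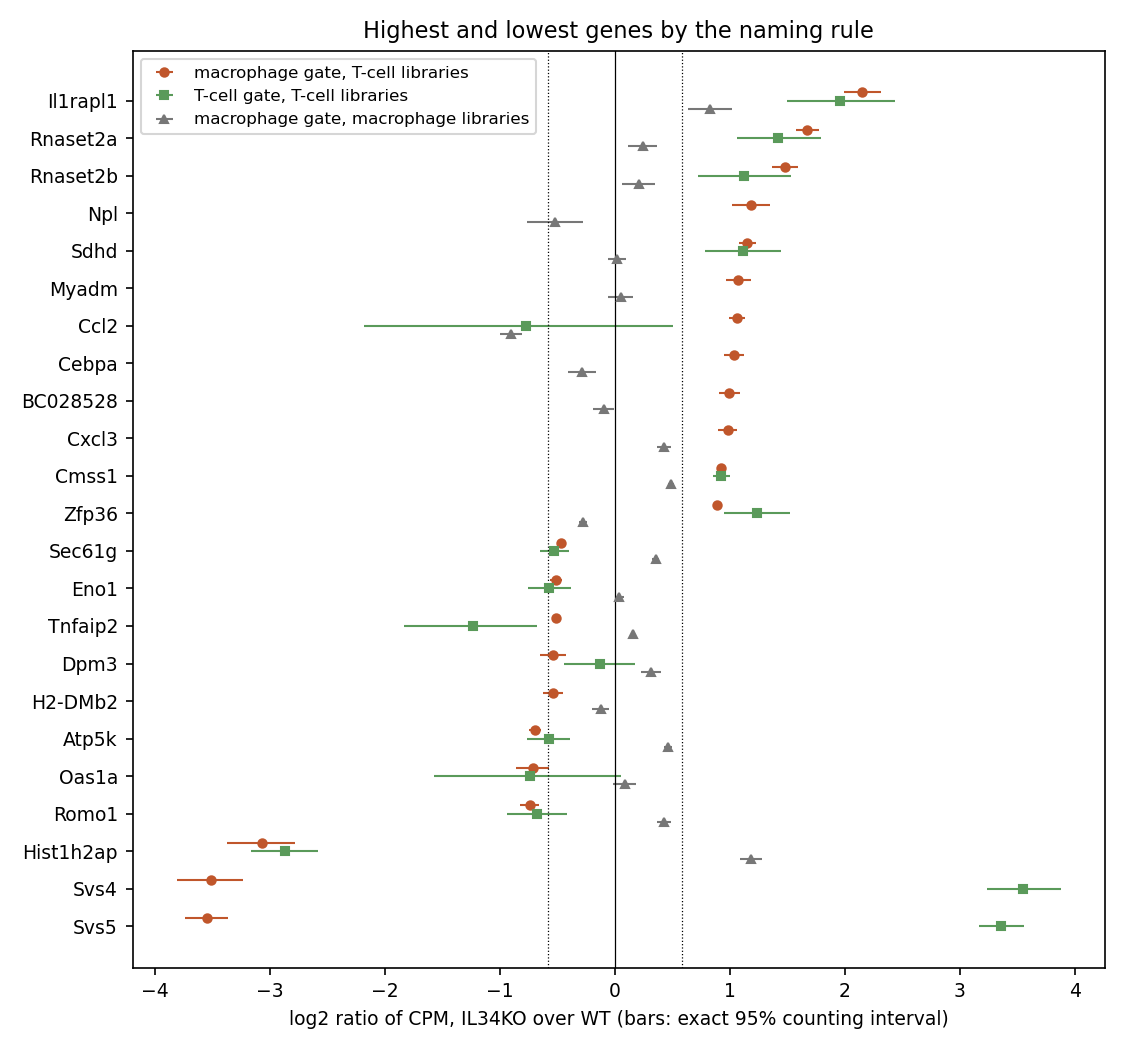
Genes at the high and low ends by the naming rule, with the log2 ratio of CPM in the library labelled IL34KO over WT (x axis) and its exact 95% counting interval. Circles are gated macrophages of the T-cell libraries, squares gated T cells of the same libraries and triangles gated macrophages of the macrophage libraries. Values with fewer than 20 UMIs in sum, or none in a library, are not drawn, and dotted lines mark 1.5-fold. Il1rapl1 is the only gene beyond 1.5-fold on the higher side in all 3, and Svs4 and Svs5 lie on opposite sides in macrophages and T cells.

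Among the genes that the naming rule allows, the lower end was led by Svs5 and Svs4, known as secretory proteins of the seminal vesicle (chromosome 2, 164332740 to 164334396 and 164275952 to 164278459). They stood at 90.6 and 7.71 CPM (11.7-fold lower, 10.3 to 13.4) and at 38.0 and 3.32 CPM (11.4-fold lower, 9.40 to 14.1). A single WT cell held 3175 of the 4721 Svs5 UMIs, or 67.3%, and the richest WT cell for Svs4 held 70.0% of its UMIs. Without the 10 richest cells of each library Svs5 stood at 17.4 and 6.17 CPM and Svs4 at 6.60 and 2.59 CPM. In the gated T cells the order was opposite, with Svs5 at 53.3 CPM in WT and 548 CPM in the library labelled IL34KO. Immunoglobulin transcripts, outside the naming rule and chosen after their values were seen, lay lower still, with log2 ratios of −4.64 for Igha, −4.24 for Jchain and −4.16 for Igkc. They too were held by few cells: the richest WT cell for each had 91.3% of the Jchain, 91.4% of the Igha and 89.4% of the Igkc UMIs.

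Hist1h2ap, a histone gene of dividing cells (chromosome 13, 21833026 to 21833507, minus strand), stood at 27.6 and 3.29 CPM (8.40-fold lower, 6.88 to 10.4) and at 232 and 31.7 CPM in T cells. It stood at 26.1 and 59.3 CPM in the macrophage libraries, the other way round. Of its 60-base stretches 92.9% occur in other transcripts. Cell-cycle genes did not follow it: 0 of 20 were higher or lower, with a median of −0.11, and cells with at least 2 UMIs of 8 cell-cycle genes were 6.85% (6.27 to 7.46) and 6.97% (6.17 to 7.84) after thinning. Romo1 stood at 81.8 and 48.9 CPM and Atp5k, a subunit of ATP synthase, at 189 and 117 CPM. Oas1a, an antiviral sensor, stood at 27.0 and 16.4 CPM (1.64-fold lower, 1.48 to 1.82), and 52.9% of its 60-base stretches are shared. The last 5 of the 12 lowest, Tnfaip2, Eno1, H2-DMb2, Dpm3 and Sec61g, did not reach 1.5-fold.

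Ribosomal protein genes, the subunits of the translation machinery, leaned lower. Of 79 measured ribosomal protein genes, 8 were lower and 0 higher, beside 0.468% lower and 0.947% higher of all measured genes. Their median log2 ratio was −0.25 in macrophages, −0.24 in gated T cells and 0.06 in the macrophage libraries. Ribosomal transcripts made up 13.8% of the gated WT UMIs and 11.6% on the IL34KO side. Of 26 oxidative phosphorylation genes 0 were higher or lower, with a median of −0.17 against 0.22 in the macrophage libraries. Among these members Cox7a2, Ndufc1, Ndufv3 and Cox8a, subunits of the respiratory chain, were furthest, at 360 and 282, 155 and 122, 148 and 117, and 1058 and 869 CPM. The list leaves out Sdhd and Atp5k, which were past 1.5-fold in opposite directions (log2 ratios 1.15 and −0.69), so its 0 does not cover all such subunits.

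Chemokines for monocytes and neutrophils had the highest median of the 23 gene lists, 0.28. Of 11 measured members 2 were higher and 0 lower, beside 0.947% and 0.468% of all measured genes. The 2 were Ccl2 and Cxcl3. Ccl12 was at 18.9 and 25.3 CPM and Ccl7, a further CCR2 ligand, at 43.5 and 55.6 CPM, both under 1.5-fold. In C1q-low cells alone the median of the same genes was −0.09, with Ccl12 at 2.69 and 0.455 CPM and Ccl7 at 8.96 and 4.55 CPM. For the macrophage libraries the list had 0 higher and 3 lower with a median of −0.46, Ccl12 at 10.1 and 4.94 CPM and Ccl7 at 25.8 and 15.5 CPM. Over all other lists the median lay between −0.17 and 0.12.

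Coagulation and matrix genes had 2 of 18 members higher and 0 lower (median 0.08), beside 0.947% and 0.468% of all measured genes. Plaur, the urokinase receptor, stood at 271 and 453 CPM (1.67-fold, 1.63 to 1.71) and F3, tissue factor, at 5.93 and 11.5 CPM (1.94-fold, 1.66 to 2.27). Plaur was found in 38.7% (37.6 to 39.9) and 55.9% (54.2 to 57.5) of thinned cells. Growth factor genes had 1 of 14 higher (median 0.12), Gdf15, a stress cytokine, at 136 and 226 CPM (1.65-fold, 1.60 to 1.71). Immediate-early and stress genes, which respond to handling, had 1 of 19 higher, Zfp36, with a median of 0.10. Junb was at 1010 and 1425 CPM in macrophages and 718 and 1034 CPM in gated T cells, under 1.5-fold in both. Among sorted macrophages Plaur stood at 306 and 303 CPM, Gdf15 at 86.3 and 48.5 CPM, and Junb at 1084 and 869 CPM.

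For antigen presentation the counts past 1.5-fold stand beside 0.947% higher and 0.468% lower of all measured genes. MHC class II genes had 0 of 13 past it (median 0.10), with H2-DMb1 at 388 and 519 CPM, H2-DMb2 at 66.5 and 45.7 CPM, H2-Ab1 at 3833 and 4336 CPM and the invariant chain gene Cd74 at 7160 and 8692 CPM. MHC class I pathway genes had 1 of 14 higher, the peptide transporter gene Tap2 at 71.2 and 127 CPM (1.79-fold, 1.71 to 1.87), with 55.0 and 98.5 CPM in gated T cells. B2m, the light chain of class I molecules, was at 3150 and 4157 CPM, and Psmb9, an immunoproteasome subunit, at 253 and 347 CPM. Genes that attract or costimulate T cells had 1 of 18 higher, Tnfsf9, the ligand of 4-1BB, at 47.4 and 74.3 CPM (1.57-fold, 1.48 to 1.66). It was under 1.5-fold with cells weighted equally, without cycling cells, in C1q-low cells and in cells of 4000 to 12000 UMIs (log2 ratios 0.51 to 0.57).

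Interferon response genes stood level in the median. Of 23 interferon gamma response genes 1 was higher, Irgm1, at 33.0 and 62.3 CPM, which was chosen after its value was seen, and the median was −0.00. Type I interferon genes had 0 of 20 higher and 1 lower, Oas1a, with a median of −0.04. Complement genes had 1 of 14 higher, Serping1, the C1 inhibitor, at 4.78 and 8.92 CPM (1.87-fold, 1.57 to 2.22). The 10 richest cells held 43.8% and 60.6% of its UMIs, and its log2 ratio was 0.10 once clusters led by at least 2 markers of another cell type were left out. Lysosomal genes had 0 of 22 lower and a median of 0.00. No member reached 1.5-fold among 21 lipid-handling genes (median 0.03), 22 glycolysis and hypoxia genes (−0.01), 15 antimicrobial genes (−0.01), 17 Fc receptors and microbial sensors (−0.04) and 13 iron and haem genes (−0.01).

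**Figure D5:**
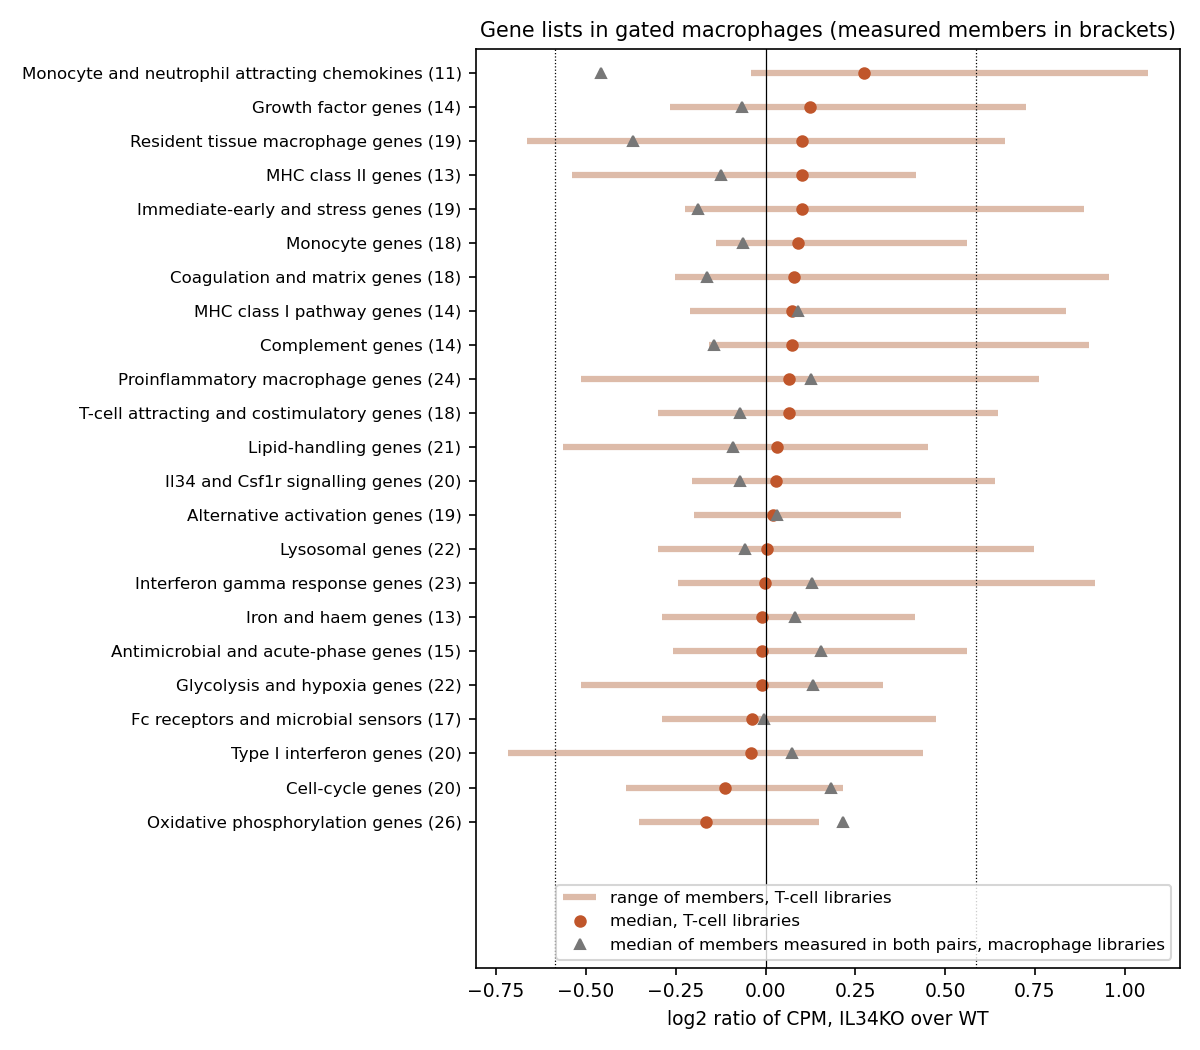
Log2 ratio of CPM in the library labelled IL34KO over WT (x axis) for 23 gene lists in gated macrophages. Bars span the measured members in the T-cell libraries, circles mark their median, triangles the median in the macrophage libraries of the members measured in both pairs, and dotted lines 1.5-fold. Circles lie between −0.17 and 0.28, and the triangles of the resident macrophage and the monocyte and neutrophil chemokine lists stand at −0.37 and −0.46.

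The second pair of libraries shares no library with the first, so calls can be laid side by side. Among 8998 genes measured in both pairs, 67 were higher in the T-cell libraries and 51 in the macrophage libraries, and 10 were in both lists, 14.9% of the first and 19.6% of the second, beside 0.567% of all 8998 higher in the macrophage libraries. Chosen after their values were seen, these were Il1rapl1, Mgp, Serping1, Ly6c1, Reg3b, Fbxl13, Col3a1, Timp3, Dcn and Ubd. Several of them are genes of stroma, vessels or epithelium: Col3a1 and Dcn encode matrix proteins of fibroblasts, and Reg3b is an antimicrobial lectin of gut epithelium. With clusters led by at least 2 markers of another cell type left out 3 genes were in both lists, and with a gate of at least 10 UMIs 5 were. Of 33 genes lower in the T-cell libraries and 139 lower in the macrophage libraries, 0 were in both lists. Of all 8998 genes 1.54% were lower in the macrophage libraries, so nothing is read from the 0. As a description, the log2 ratios of the 8998 genes correlated at r = −0.13 across genes, which are not independent replicates.

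Clustering of the gated cells gave 19 clusters with near-equal shares of both libraries for most. The cluster led by Plac8 and Ly6c2, genes of fresh monocytes, held 9.20% (8.54 to 9.88) of WT cells and 7.79% (6.998 to 8.64) of the library labelled IL34KO. A cluster led by Ccl17 and Ccl22, with 4 dendritic cell markers among its 10 leading genes, held 3.08% and 2.30%. The cluster led by Ccl12 and Ccl7, with Ccl2 among its 10 leading genes, held 6.98% (6.405 to 7.59) and 5.37% (4.71 to 6.10). Another, led by Svs5 and Tmem119, held 1.71% (1.42 to 2.03) and 0.876% (0.6175 to 1.205). These intervals cover counting error over cells only. All gated cells are the base of the shares, including those of the next cluster, and the shares were not computed without that cluster. The cluster furthest apart was led by the goblet and epithelial genes Fcgbp, Phgr1 and Muc2, with a median of 1343 UMIs, and held 56 WT cells (0.771%) and 324 cells of the library labelled IL34KO (7.67%). It stays unnamed, as its leading genes go against a macrophage name. Phgr1 is itself among the genes called higher, so this share is not independent of the comparison of genes. Without the clusters that had at least 2 markers of another cell type among their leading genes, the log2 ratios of Ccl2, Cebpa and Il1rapl1 were 1.06, 1.04 and 2.16.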

How the data were processed

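The authors deposited raw UMI counts per gene and barcode for 6 libraries, made with Cell Ranger 7.0.1 and the mm10 genome per the submitters' processing notes. Both 5′ and 3′ kits are named in the labels, without the library each served. Gene symbols are those of the files. Of the 32285 genes, 32158 were found in GENCODE M21, which gave the coordinates.

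Counts were summed over gated cells and scaled to CPM. Ratios carry exact conditional binomial, levels exact Poisson and shares exact Clopper-Pearson 95% intervals, which cover counting error only. No test was made, since each side is 1 library. The mirrored T-cell gate was used as background. Scrublet calls were applied as an alternative only, so doublets beyond the gate were kept. Leiden clustering (scanpy 1.11.5) used 2000 variable genes, 30 components, 15 neighbours and resolution 1. Shared sequence was counted as 60-base stretches of GENCODE transcripts. The scripts were tested on simulated data.

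Named genes needed 50 UMIs and 20 CPM in 1 library, and after adding 5 CPM to both levels the 12 genes at each end of the log2 ratios were taken. Gate genes, antigen receptor, haemoglobin, ribosomal and mitochondrial genes, genes of the sex chromosomes that mark sex, and unnamed Gm and Rik genes were passed over. Up to 4 members of each of 23 lists, whose log2 ratios went furthest with the sign of the median, and a fixed set of polarization and IL-34 axis genes were added. Genes of the resident, cluster and second-pair descriptions beyond this rule (Timd4, Tmem119, Selenop, Cx3cr1, Ccl21a, Mmrn1, Irgm1, Phgr1, Plac8, Cd226, Hist1h2ae, Jchain, Igha, Igkc and the genes of both pairs) were chosen after their values were seen. The gate, lists and rules were chosen with earlier results of these data known. Alternatives were 20 planned and 4 added after the data were seen, among them TMM (edgeR 4.0.16) and median-of-ratios (DESeq2 1.42.0) size factors. Some genes that the rule names are not reported here, and the plots of named genes leave them out.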

Additional observations from a re-analysis of the deposited data

Results flagged for a closer look

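Genes past 1.5-fold in opposite directions in the T-cell libraries and in the macrophage libraries were singled out, and in each case the difference between the 2 pairs was not tested. Log2 ratios of the library labelled IL34KO over WT in gated macrophages are given first for the T-cell libraries and then for the macrophage libraries. Ccl2 had 1.06 and −0.90, Gdf15 0.72 and −0.83, Hist1h2ap −3.07 and 1.18, and Hist1h2ae, a further histone gene, −1.81 and 0.62. Tmem119 had −0.66 and 0.99, and Cd226, a receptor best known from lymphocytes, 0.59 and −0.62. Tmem119 and Cd226 stood near the 5 CPM floor, with 5.16 and 3.26 CPM for Tmem119 in the T-cell libraries, and 4.61 and 6.96 CPM for Cd226.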

How the results depend on the processing

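No paired analysis was possible because each group is 1 library. The share of gated cells (51.65% WT, 49.29% labelled IL34KO) was 48.36% and 45.63% with 200 genes and 20% mitochondrial UMIs, 58.11% and 52.18% with 1000 genes and 5%, 50.25% and 47.75% with at least 10 macrophage UMIs, and 52.67% in WT with at least 3. It was 55.34% and 53.34% with T-cell and Epcam limits as shares of UMIs, 61.92% and 58.3% with the gate set after thinning, 55.04% and 52.46% without Scrublet doublets, 40.05% and 37.93% without cycling cells, 45.52% and 43.25% without cells holding dendritic-cell genes, and 50.57% and 44.8% without cells holding epithelial UMIs. The counts of higher and lower genes were 175 and 101 after thinning, 4421 and 2256 with no floor, 39 and 20 with a floor of 20 CPM, and 911 and 434 in C1q-low cells, which are few. With cells weighted equally 197 were higher, and without the left-out name classes 27 were lower. The count higher in both pairs was 5 with the gate of 10 UMIs, 2 with the gate after thinning, 6 without doublets, 5 in C1q-high cells, 3 without clusters led by other markers (by any or by at least 2), 1248 with no floor, 0 at 20 CPM and 60 in C1q-low cells. The count lower in both was 1 with limits as shares, 1 with the gate after thinning, 3 after thinning, 1 without cycling cells, 1 without clusters led by at least 2 other markers, 482 with no floor and 20 in C1q-low cells. Apart from the floors, the subsets and the thinning, which change the genes or cells counted by construction, the cause was not tested.

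Of 31 named genes past 1.5-fold, 30 kept 1 direction in every alternative and 22 stayed past 1.5-fold. Atp5k came to −0.56 and −0.55 on the log2 scale with thinned or equally weighted cells, and Oas1a to −0.51 and −0.47 with thinned or C1q-low cells. The exception in direction was Lyve1, at −0.016 on the log2 scale without clusters led by any marker of another cell type, 1 of them by Jchain of a single WT cell, and at −0.0032 without those led by at least 2. The medians of the 23 lists lay between −0.20 and 0.31 under all alternatives. Counting error is small for abundant genes (Nos2 1.05 to 1.11), but intervals take in no difference between mice or preparations, which 1 library a side leaves unmeasured.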

Other observations

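Macrophages filled the gate of both libraries labelled as T cells at more cells than the same gate gave in the libraries of sorted macrophages, with 7263 and 4224 against 3365 and 3125 cells. In the macrophage libraries the gated cells were 64.2% and 48.1% of filtered barcodes, with medians of 12787 and 11166 UMIs. Ly6c2 was at 74.6 and 80.2 CPM in the T-cell libraries and at 196 and 289 CPM in the macrophage libraries, and Plac8, a gene of blood monocytes named after its values were seen, at 284 and 287 against 934 and 1048 CPM. C1qa was at 2082 and 2088 against 1333 and 1111 CPM. In each sentence the WT library stands before the library labelled IL34KO. The sorts differed between these libraries, and their part in the levels was not tested.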
